A study of Mus musculus with 64 samples.

Results

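The genes described here encode calcineurin, the calcium-activated phosphatase of muscle, and the transcription factors it is best known to work through in the heart. The list of 10 genes holds the calcineurin catalytic subunits Ppp3ca and Ppp3cb, the calcineurin regulator Rcan1, the NFAT factors Nfatc1, Nfatc2, Nfatc3 and Nfatc4, and the MEF2 factors Mef2a, Mef2c and Mef2d. The list was named by gene and not picked by a threshold, and all 10 were found among the 16913 genes of the deposited gene count table. The data are bulk RNA-seq of 64 mouse hearts, made to study high-intensity interval training in a model of hypertrophic cardiomyopathy. Mice were of the C57BL/6J strain and either non-transgenic (nTG) or transgenic (TG) for a mutant cardiac troponin T, cTnT-delta160E. They either stayed sedentary or ran on a treadmill for 6 weeks, with 3 sessions of 31 minutes a week, each holding 4 fast intervals (85% of the mean speed reached in a graded test) and 4 slow ones (50%). Among males there were 7 sedentary nTG, 9 sedentary TG, 8 trained nTG and 8 trained TG hearts. Among females there were 8 sedentary nTG, 8 sedentary TG, 10 trained nTG and 6 trained TG hearts. The age of the animals and the promoter that drives the transgene are not given in the sources used here.

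Calcineurin is switched on by calcium and calmodulin and removes phosphates from NFAT proteins in the cytoplasm, which then enter the nucleus. MEF2 factors are bound to DNA in heart muscle cells and are held back by class II histone deacetylases until calcium-dependent kinases release them. Both branches are known for their part in cardiac hypertrophy, and both act largely through protein activity, which transcript counts do not measure. Rcan1 is the usual exception: a short form of it is made from an internal promoter that NFAT itself activates, so its transcript is often read as a sign of calcineurin activity. The deposited table holds 1 count per gene and cannot separate that form from the others.

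The promoter sequences of the members that the results turn on are shown for their matches to the NFAT core motif, because NFAT proteins act on some of these genes and Rcan1 is the textbook case. They run from 250 bases before to 50 after a RefSeq start (GRCm38.p6), and the 300 bases are written 5′ to 3′ in the direction of the gene. Capitals mark the NFAT core GGAAA read on either strand (GGAAA or TTTCC), and in Mef2a a match to the MEF2 consensus on either strand. Among 32544 mouse promoters of this length 61.5% hold at least 1 NFAT core and 1.86% hold the MEF2 consensus. Promoters of 8 of the 10 members could be used.
Rcan1, internal start, chr16:92400029-92400328, minus strand: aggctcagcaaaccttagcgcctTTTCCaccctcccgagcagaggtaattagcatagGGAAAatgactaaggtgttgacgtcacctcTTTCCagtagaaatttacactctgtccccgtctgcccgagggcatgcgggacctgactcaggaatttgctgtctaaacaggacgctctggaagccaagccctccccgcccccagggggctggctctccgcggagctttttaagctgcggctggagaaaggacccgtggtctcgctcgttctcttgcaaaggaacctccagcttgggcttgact
Ppp3cb, chr14:20546524-20546823, minus strand: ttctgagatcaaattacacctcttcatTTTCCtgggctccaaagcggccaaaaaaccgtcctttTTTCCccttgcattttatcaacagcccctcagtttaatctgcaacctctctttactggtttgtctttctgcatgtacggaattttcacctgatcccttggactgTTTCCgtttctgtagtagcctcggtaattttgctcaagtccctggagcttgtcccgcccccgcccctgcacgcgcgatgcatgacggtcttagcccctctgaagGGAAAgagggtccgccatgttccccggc
Nfatc2, first start, chr2:168601608-168601907, minus strand: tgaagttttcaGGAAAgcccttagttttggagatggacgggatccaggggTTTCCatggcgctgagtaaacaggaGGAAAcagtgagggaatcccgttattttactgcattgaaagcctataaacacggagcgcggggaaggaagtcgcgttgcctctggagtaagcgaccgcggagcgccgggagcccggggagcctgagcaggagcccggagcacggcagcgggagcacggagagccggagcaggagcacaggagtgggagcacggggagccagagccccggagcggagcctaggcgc
Mef2a, chr7:67372809-67373108, minus strand: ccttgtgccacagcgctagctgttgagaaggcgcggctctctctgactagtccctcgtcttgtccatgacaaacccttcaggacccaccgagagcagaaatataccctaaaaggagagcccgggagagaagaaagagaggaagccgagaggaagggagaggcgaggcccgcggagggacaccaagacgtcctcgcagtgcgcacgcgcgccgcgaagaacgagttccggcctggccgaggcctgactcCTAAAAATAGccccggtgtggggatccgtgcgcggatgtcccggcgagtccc
Mef2d, chr3:88142122-88142421, plus strand: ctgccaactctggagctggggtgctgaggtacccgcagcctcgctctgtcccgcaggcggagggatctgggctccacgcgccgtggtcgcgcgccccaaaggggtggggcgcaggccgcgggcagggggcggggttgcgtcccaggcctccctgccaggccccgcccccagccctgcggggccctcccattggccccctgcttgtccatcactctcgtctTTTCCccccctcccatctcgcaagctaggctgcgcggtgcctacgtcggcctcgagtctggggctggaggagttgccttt
The internal Rcan1 promoter held 3 cores and the upstream Rcan1 promoter (chr16:92466120-92466419) held 0. At least 3 cores stand in 9.4% of all promoters. Ppp3cb held 4, a number reached by 2.6% of promoters, Nfatc4 held 3 and Mef2d held 1. Nfatc2 held 3 at its first start and 1 at its second, and Nfatc3 held 1 and 0. The first Mef2c promoter (chr13:83503784-83504083) held 5, a number reached by 0.7% of promoters, and the other 2 Mef2c promoters held 0 each. GC content was 35.7% in that first promoter, 47% and 48.3% in the other 2 and 51% in the Ppp3cb promoter. The shares over all promoters take no account of GC content. Mef2a held 0 NFAT cores and 1 MEF2 consensus match. A match is a string of letters and not a measured binding site.

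All 10 genes were expressed in every heart, with the lowest count, 294, seen for Nfatc4. Levels between genes are given in CPM (counts scaled to library size) per kilobase of annotated exons, as the mean and the range over 64 hearts. Mef2d, the highest by this measure, stood at 44.7 (33.96 to 60.9), Rcan1 at 28.6 (19.3 to 54.7) and Mef2a at 16.3 (13.4 to 20.1). The catalytic subunits were lower, with Ppp3ca at 6.28 (5.73 to 7.26) and Ppp3cb at 5.64 (4.68 to 6.95). Nfatc1, known for its role in valve development, stood at 5.30 (4.47 to 6.51) and Mef2c at 4.82 (4.09 to 5.86). Nfatc2 and Nfatc3 both stood at 3.20, with ranges of 2.57 to 4.27 and 2.82 to 3.65, and Nfatc4 was lowest at 1.63 (1.15 to 2.20). In this order the ranges of neighbours overlap except between Mef2a and Ppp3ca and between Nfatc3 and Nfatc4. The order rests on the length used. Annotated exons cover 14681 bases in Mef2a and 3085 in Rcan1, while their longest transcripts hold 5538 and 2324 bases. For Mef2c and Nfatc1 the exons cover 15715 and 7469 bases, and the longest transcripts hold 6277 and 4797. Which gene of each of these pairs is the higher is therefore not settled.

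The members also differed in how tightly they were held among hearts of 1 group. Pooled over the 8 groups, the coefficient of variation within groups was 3.85% for Ppp3ca, the lowest, and 21.9% for Rcan1, the highest. The other members lay between 5.95% for Nfatc3 and 12.8% for Nfatc4. The order was not the same in every group. The spread of Rcan1 was widest in 3 male groups, with an SD of 28.1 CPM in sedentary TG, 23.1 in trained nTG and 33.9 in trained TG males, against 6.39 to 11.05 CPM in the other 5 groups. In sedentary nTG males Nfatc4 (9.24 ± 1.62 CPM) varied more for its level than Rcan1 (89.6 ± 6.39 CPM), and Mef2a (234 ± 4.68 CPM) less than Ppp3ca (64.1 ± 2.33 CPM). The lowest Rcan1 level was 59.4 CPM, in a trained nTG female, and the highest was 169 CPM, in a trained TG male. Values in CPM here and below are scaled by edgeR's TMM factors and compare 1 gene between hearts.

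**Figure D1:**
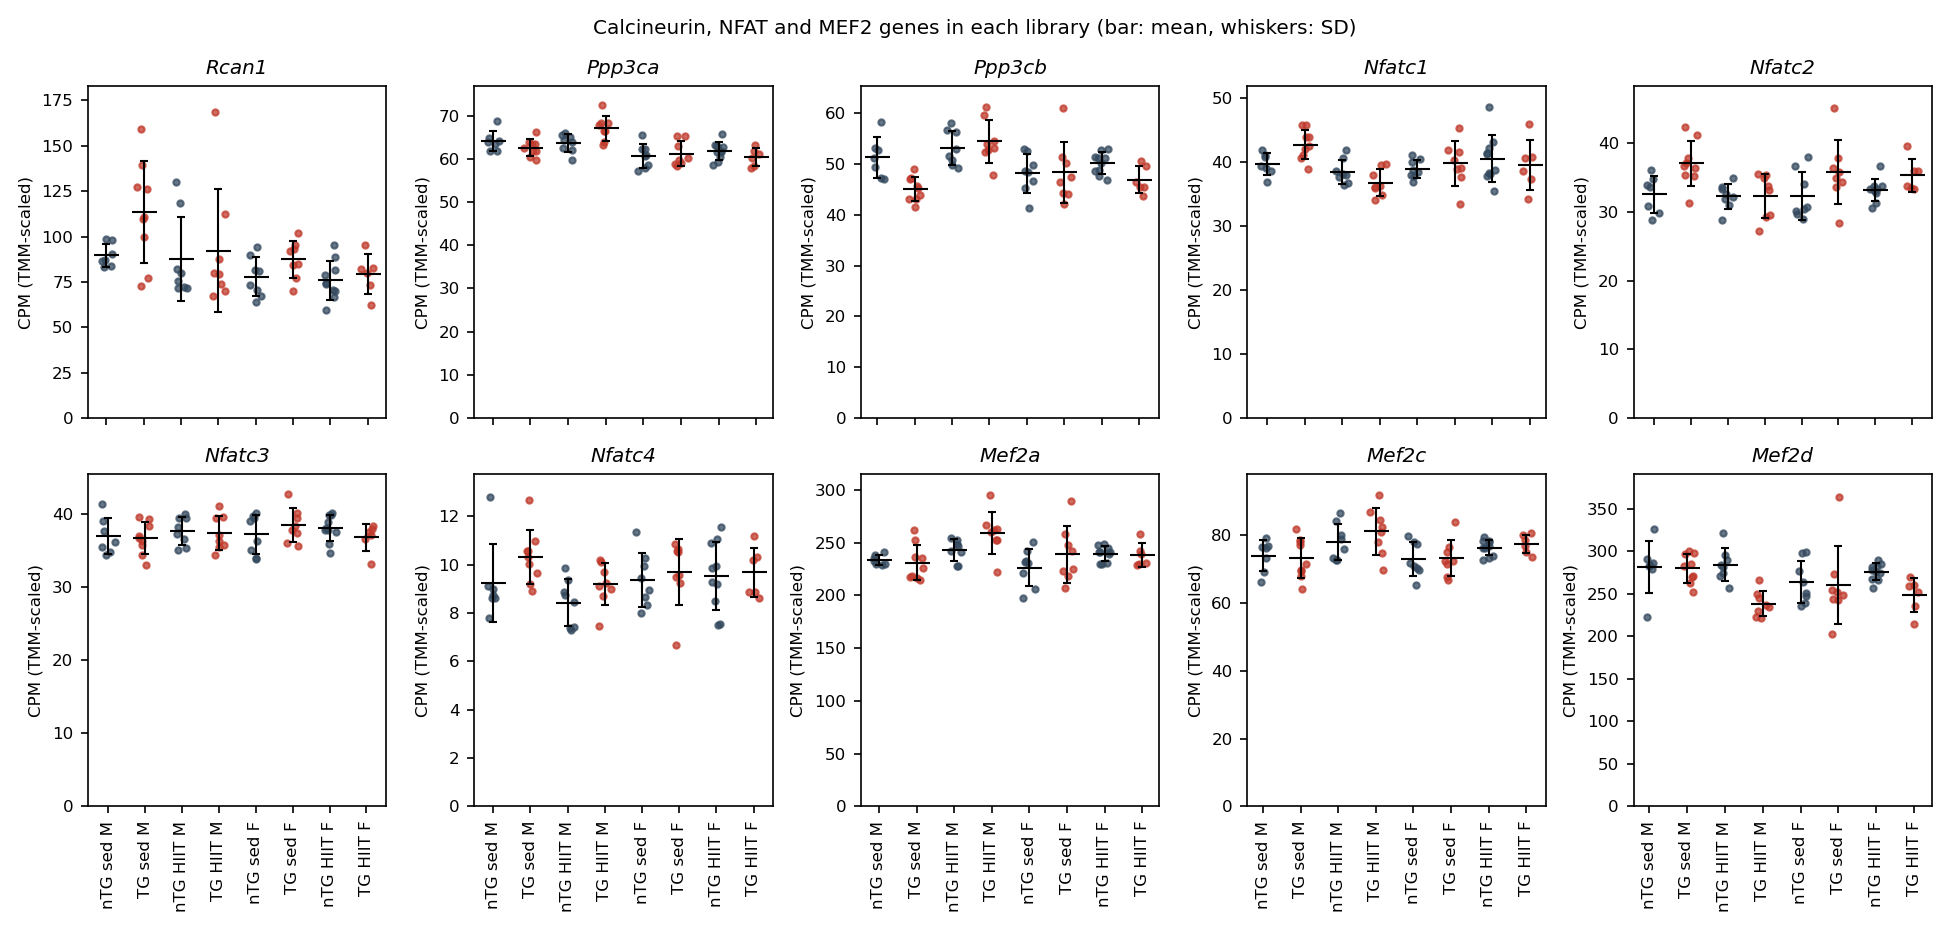
CPM (TMM-scaled) of each member in each heart, by group (sed: sedentary; HIIT: trained; M and F: male and female; dark points nTG, red points TG), with the group mean and SD. Rcan1 is spread from 59.4 to 169 CPM, and the 9 sedentary TG males lie low for Ppp3cb, with a mean of 45.1 CPM.

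By position (GRCm38), Rcan1 spans chr16:92391953-92470867, Ppp3ca chr3:136670124-136937727, Ppp3cb chr14:20499364-20546573 and Nfatc2 chr2:168476410-168601657. Nfatc3 spans chr8:106058840-106130537, Nfatc4 chr14:55823144-55833943, Mef2a chr7:67231163-67372858, Mef2c chr13:83504034-83667080 and Mef2d chr3:88142372-88172086. Annotated exons of other genes on the opposite strand cover 8.9% of the exons of Mef2d, 2.1% of Mef2a and 1.9% of Nfatc3. Whether counting used strand is not given in the sources used here, so reads there cannot be assigned to 1 gene for certain.

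The libraries held 34.6 M to 67.1 M gene counts (M, mega). The names on the columns of the gene table did not match their contents: taken by name, 32 libraries went against their labelled sex and 30 against their labelled genotype. Each column of the lncRNA table was therefore given the gene column that correlated with it best over 389 transcripts found in both tables. All 64 pairs were the best match in both directions (r of 0.599 to 0.863, next best at most 0.404), and by this join 0 libraries went against sex or genotype. Tnnt2, the gene of cardiac troponin T, then stood at 6903 to 12001 CPM in TG and at 2665 to 3428 CPM in nTG hearts. Every value below uses the joined columns. The summed level of 6 cardiomyocyte markers was 46350 to 67541 CPM over all hearts, and 6 lymphocyte markers together reached 1.61 to 10.1 CPM.

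In sedentary males, which compare hearts with and without the mutant transgene in the absence of training, TG hearts had less Ppp3cb and more Nfatc2 than nTG hearts, and the other 8 members did not pass the test. Ppp3cb, a catalytic subunit of calcineurin, ran from 41.6 to 49.02 CPM (median 45.3) in 9 TG hearts and from 46.97 to 58.3 CPM (median 51.3) in 7 nTG hearts. The groups overlap, but 7 of the 9 TG hearts lay below every nTG heart. The log2 fold change was -0.19 ± 0.05 (SE), with an edgeR adjusted p of 0.00785. Nfatc2, an NFAT factor better known from T cells, ran from 31.4 to 42.4 CPM (median 36.7) in TG and from 28.9 to 36.1 CPM (median 33.7) in nTG hearts. Of the 9 TG hearts 6 lay above every nTG heart, with a log2 fold change of 0.19 ± 0.06 and an edgeR adjusted p of 0.0266. Bulk counts cannot tell fewer cells of a type from less RNA per cell.

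Rcan1 had the greatest difference of the members in sedentary males without passing the test. It ran from 72.7 to 159 CPM (median 111) in TG hearts and from 83.1 to 98.4 CPM (median 87.1) in nTG hearts. The TG hearts spread to both sides: 7 of 9 stood above every nTG heart and the other 2 below every one. The log2 fold change was 0.34 ± 0.14, with an edgeR adjusted p of 0.0712. Nfatc1 differed by 0.11 ± 0.05 (adjusted p 0.123) and Nfatc4 by 0.16 ± 0.09 (adjusted p 0.222) on the log2 scale. The members closest to no difference were Mef2d at -0.01 ± 0.07, Mef2c at -0.01 ± 0.05 and Nfatc3 at -0.01 ± 0.04, so the 95% interval for Mef2d was -0.14 to 0.12.

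The count of 2 called members of 10 stands beside 3488 called genes, or 20.6% of all genes tested, with 9.39% higher and 11.2% lower in TG. The median log2 fold change of the members was -0.01, against -0.0052 for all genes. Scaling by library totals alone moved the split of all called genes from 1588 higher of 3488 to 2525 higher of 3525. Under that scaling Ppp3cb no longer passed (adjusted p 0.0525), while Rcan1 and Nfatc1 did. Nfatc2 missed the threshold when any 1 of 5 libraries was left out, with adjusted p values of 0.0532 to 0.0848: sedentary TG males 4 and 5 and sedentary nTG males 2, 4 and 6. Cell type markers moved in the same comparison: 6 of 6 fibroblast markers and 5 of 5 macrophage markers were higher and 4 of 6 cardiomyocyte markers lower in TG. Of the lymphocyte markers 1 of 6 was higher, with a summed level of 2.64 to 6.06 CPM in TG and 2.83 to 5.82 CPM in nTG hearts. The summed fibroblast level was 641 to 1068 CPM in TG and 556 to 775 CPM in nTG hearts, and the macrophage level 132 to 203 and 97.8 to 132 CPM. The part of these markers in the Ppp3cb and Nfatc2 results was not tested.

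In trained males Mef2d was lower in TG hearts, and the other 9 members did not pass the test. Mef2d, a partner of class II histone deacetylases in stress signalling, ran from 222 to 266 CPM (median 236) in 8 TG hearts and from 257 to 321 CPM (median 283) in 8 nTG hearts. Of the 8 TG hearts 7 lay below every nTG heart. The log2 fold change was -0.25 ± 0.06, and the edgeR adjusted p was 0.00472. Ppp3ca came next, at 0.08 ± 0.03 with an adjusted p of 0.0863 (0.04 ± 0.03 with the GC adjustment described below), and Ppp3cb, lower in sedentary TG males, stood at 0.03 ± 0.05 here, a sign that turned with that adjustment (-0.07 ± 0.04). Nfatc2 was at 0.00 ± 0.06, with a 95% interval of -0.12 to 0.13. The 1 called member of 10 is no greater a share than the 14% of all genes called, 5.65% higher and 8.31% lower, and the median of the members was 0.05 against 0.01 for all genes. Under library totals, which moved the split of all called genes from 956 higher of 2361 to 2057 higher of 2805, Mef2d kept its sign and passed (adjusted p 0.031), and Ppp3ca and Mef2a passed as higher. In trained males 4 of 6 fibroblast and 4 of 5 macrophage markers were higher in TG, and 5 of 5 blood, 1 of 6 cardiomyocyte and 1 of 5 endothelial markers were lower. The summed fibroblast level was 643 to 1312 CPM in TG and 507 to 676 CPM in nTG hearts, the macrophage level 129 to 207 and 91.3 to 120 CPM, and the blood level 260 to 554 and 573 to 1112 CPM. The part of these markers in the Mef2d result was not tested.

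In females 0 members passed the edgeR test at either training state. The female hearts were compared in the same way, with 4.37% of all genes called in those that stayed sedentary (1.58% higher, 2.78% lower). In those that trained it was 14.8% (5.37% higher, 9.43% lower). At an unadjusted p under 0.05 there was 1 member in each. In sedentary females this was Nfatc2, which ran from 28.4 to 45.2 CPM in TG and from 28.97 to 37.99 CPM in nTG hearts, a log2 fold change of 0.15 ± 0.06 with an adjusted p of 0.194. In trained females it was Mef2d, from 214 to 270 CPM (median 256) in 6 TG and from 257 to 290 CPM (median 277) in 10 nTG hearts. Every trained TG female lay below the nTG median for Mef2d, and the log2 fold change was -0.15 ± 0.07 with an adjusted p of 0.123. Ppp3cb was lower than the nTG median in 6 of 6 trained TG females too, at -0.10 ± 0.05 with an adjusted p of 0.234. DESeq2 called 0 members in both, and limma voom with sample weights called 0 in sedentary females and 1, Mef2d, in trained females (adjusted p 0.0415, beside 21.2% of all genes). Mef2d also passed in trained females when only the groups compared were fitted (adjusted p 0.0469, beside 14.6%). Under library totals 0 members passed in trained females. The split of all called genes there moved from 908 higher of 2503 to 1843 higher of 2517. In trained females 4 of 6 fibroblast and 3 of 5 macrophage markers were higher and 3 of 6 cardiomyocyte markers lower in TG. The summed fibroblast level was 755 to 969 CPM in TG and 577 to 731 CPM in nTG hearts, and the macrophage level 128 to 182 and 98.7 to 141 CPM. In sedentary females 1 of 6 fibroblast markers was higher and 0 macrophage or cardiomyocyte markers passed. Their part in the values of Nfatc2 and Mef2d was not tested.

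Averaged over both sexes and both training states, TG hearts had more Nfatc2 and less Mef2d. Nfatc2 differed by 0.11 ± 0.03 on the log2 scale (edgeR adjusted p 0.00503), or 7.68%. Mef2d stood at -0.11 ± 0.03 (edgeR adjusted p 0.00605), or -7.22%. Rcan1 stood at 0.16 ± 0.07 with an adjusted p of 0.0584, Ppp3cb at -0.06 ± 0.03 with 0.0639 and Nfatc4 at 0.09 ± 0.05 with 0.118. The other 5 members lay between -0.01 for Nfatc3 and 0.04 for Mef2a. The 2 called members stand beside 39% of all genes called, 18.5% higher and 20.5% lower. Under library totals, which called 5174 higher of 7240 genes against 3128 of 6603, Mef2d missed the threshold (-0.06, adjusted p 0.139), Nfatc2 passed, and 5 more members passed as higher. The mean also changed where GC content was adjusted for, as described below. Over the same 4 strata 6 of 6 fibroblast and 5 of 5 macrophage markers were higher in TG hearts, and 5 of 6 cardiomyocyte, 3 of 5 blood and 1 of 5 endothelial markers were lower. Myl1, the 1 measured gene of 6 skeletal muscle markers, was higher in TG in each of the 4 strata. The part of these markers in the Nfatc2 and Mef2d results was not tested.

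**Figure D2:**
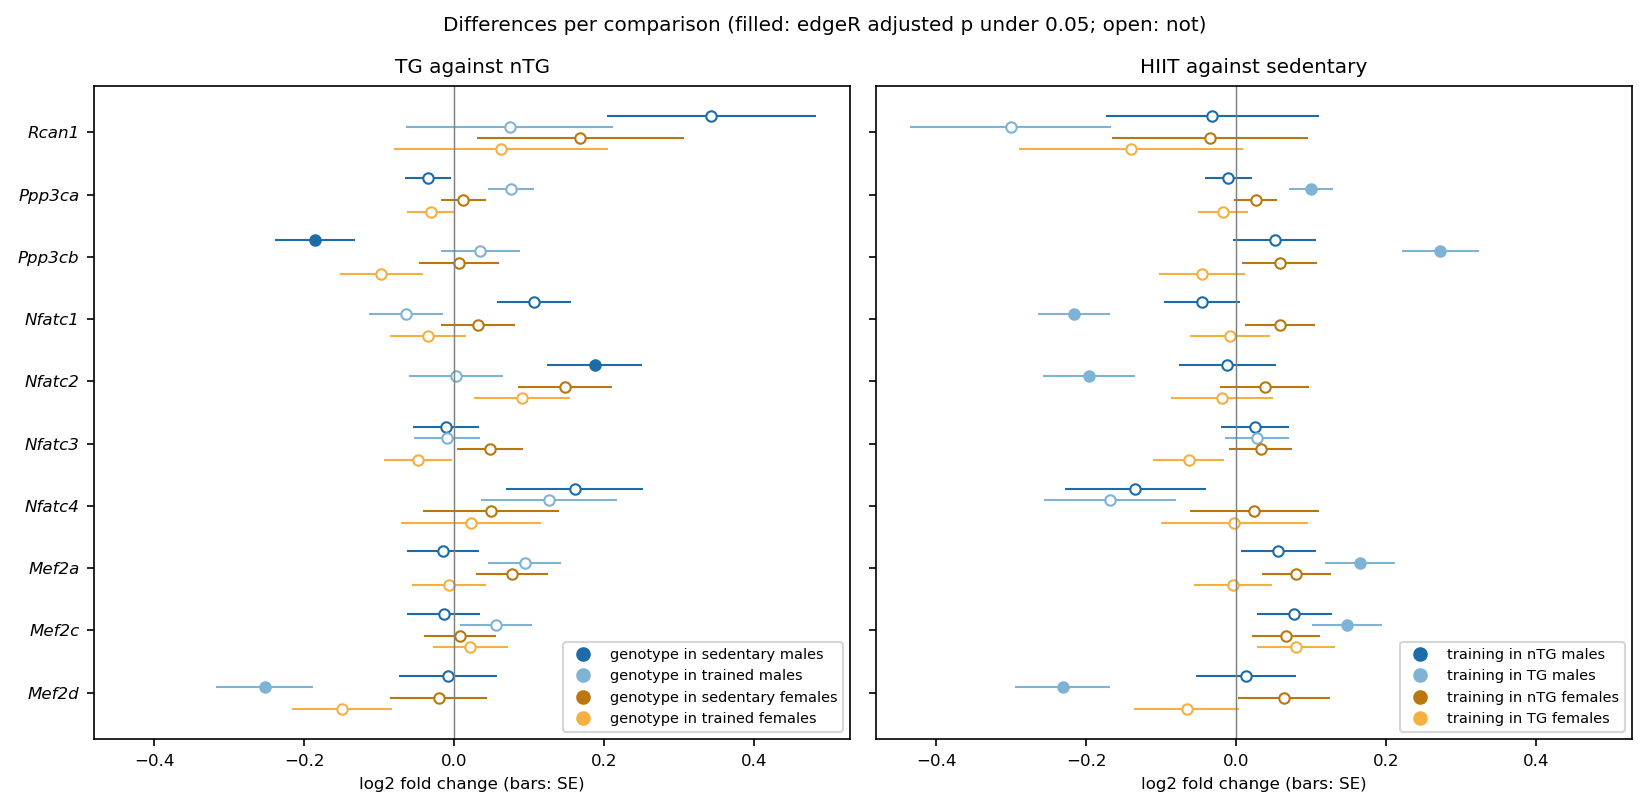
Log2 fold change of each member with its standard error, for TG against nTG hearts (left) and trained against sedentary hearts (right), by sex and group. Filled points passed the edgeR test: 3 on the left (Ppp3cb, Nfatc2 and Mef2d in males) and 7 on the right, all in TG males.

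Training was compared within each genotype and sex, and TG males were the group in which members passed. There 7 of 10 members differed between 8 trained and 9 sedentary hearts, 4 higher and 3 lower, while 18% of all genes passed, 10.3% higher and 7.6% lower. The calcineurin subunits and the MEF2 factors Mef2a and Mef2c were higher after training, and Nfatc1, Nfatc2 and Mef2d were lower. Among genes with a mean of at least 100 counts, which holds for all 10 members, 28.2% passed and the members stayed at 7. Under library totals the split of all called genes moved from 1750 higher of 3036 to 994 higher of 2952. Then 5 members passed, 2 of them higher, and Ppp3ca and Mef2c lost their call. The members' median log2 fold change was -0.07 and that of all genes 0.0001, but the median size of change was 0.18 for the members and 0.13 for all genes. These changes followed transcript GC content, which is described after the values.

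Ppp3cb changed most clearly. It ran from 47.8 to 61.2 CPM (median 53.6) in trained and from 41.6 to 49.02 CPM (median 45.3) in sedentary TG males, and 7 of the 8 trained hearts lay above every sedentary one. The log2 fold change was 0.27 ± 0.05, with an edgeR adjusted p of 0.0011, and it ranked 26 by p among all genes. Ppp3ca, the other catalytic subunit, ran from 63.2 to 72.4 CPM (median 67.09) in trained and from 59.7 to 66.2 CPM (median 62.4) in sedentary hearts. It rose by 0.10 ± 0.03 on the log2 scale (edgeR adjusted p 0.0149), the smallest of the called changes in a gene that varied little. Ppp3r1, the calcineurin regulatory subunit, which was not on the list of 10, rose by 0.26 ± 0.05 (adjusted p 0.00145), from a mean of 40.5 to 48.5 CPM.

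Mef2a, the more abundant of the rising MEF2 genes, ran from 222 to 295 CPM (median 261) in trained and from 215 to 262 CPM (median 226) in sedentary TG males. It rose by 0.17 ± 0.05 (edgeR adjusted p 0.0111), and 4 of the 8 trained hearts lay above every sedentary one. Mef2c, needed for heart development, ran from 69.7 to 92.0 CPM (median 81.7) against 64.3 to 82.0 CPM (median 71.5) and rose by 0.15 ± 0.05 (edgeR adjusted p 0.021). Mef2d moved the other way: trained hearts ran from 222 to 266 CPM (median 236) and sedentary hearts from 253 to 301 CPM (median 283). Here 7 of the 8 trained hearts lay below every sedentary one, and the gene fell by 0.23 ± 0.06 (edgeR adjusted p 0.00888).

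Nfatc1 ran from 33.98 to 39.7 CPM (median 36.2) in trained and from 38.9 to 45.7 CPM (median 42.4) in sedentary TG males, with 6 of 8 trained hearts below every sedentary one. It fell by 0.22 ± 0.05 on the log2 scale (edgeR adjusted p 0.00241). Nfatc2 ran from 27.2 to 35.5 CPM (median 33.5) against 31.4 to 42.4 CPM (median 36.7) and fell by 0.20 ± 0.06 (edgeR adjusted p 0.0197). The trained hearts all lay below the sedentary median for both genes. Nfatc4 stood at -0.17 ± 0.09 (adjusted p 0.18) and Nfatc3 at 0.03 ± 0.04 (adjusted p 0.706). Rcan1 had a larger difference and a wider spread: 67.4 to 169 CPM (median 79.6) in trained and 72.7 to 159 CPM (median 111) in sedentary hearts, a log2 fold change of -0.30 ± 0.13 with an adjusted p of 0.107. With limma voom and sample weights, which count hearts that stand apart for less, Rcan1 passed at -0.43 (adjusted p 0.00391), beside 26.8% of all genes. That fit was made without the GC adjustment described below.

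The direction of these changes went with base composition. In the longest annotated transcript, GC content was 39.8% for Ppp3cb, 40.8% for Mef2c, 42% for Mef2a and 45.4% for Ppp3ca, the 4 genes that rose. It was 53.7% for Nfatc1, 55% for Mef2d and 55.3% for Nfatc2, the 3 genes that fell. Of the uncalled members, Nfatc3 had 45.9%, Rcan1 54.5% and Nfatc4 58.8%, and each had the sign of its neighbours in GC content. The same held far beyond these genes: over 13380 genes, which are not independent replicates, the log2 fold change and GC content had r = -0.577. Cut at the quartiles of GC content, 87.2% of the lowest group of genes were higher after training, with a median of 0.15, and 13% of the highest group, with a median of -0.13. For genotype in sedentary males the same r was 0.129 and in trained males -0.268.

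**Figure D3:**
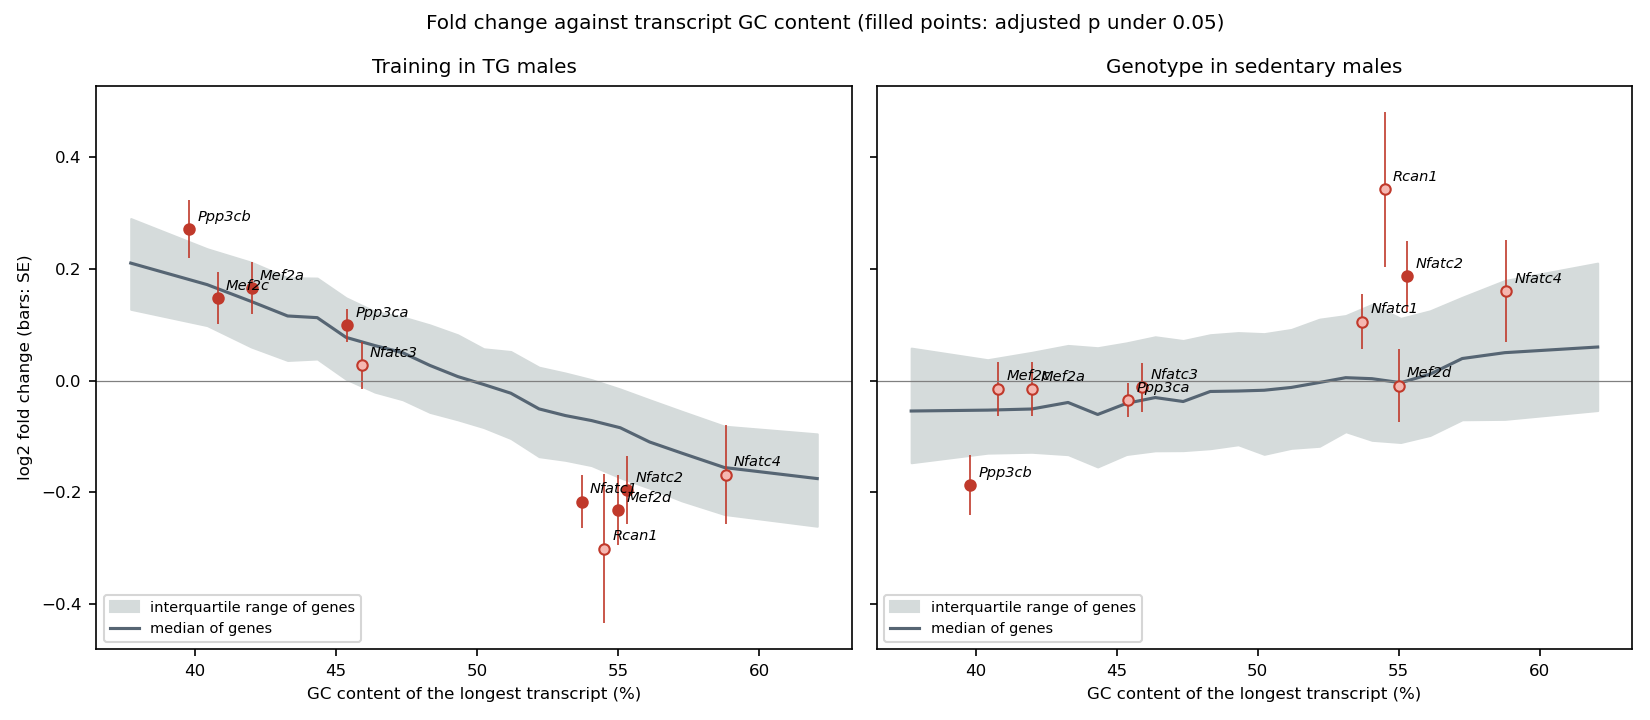
Log2 fold change with its standard error against transcript GC content for the members (filled: edgeR adjusted p under 0.05), over the median and the interquartile range of all genes in 20 bins of GC content. For training in TG males the filled members go from Ppp3cb at 0.27 to Mef2d at -0.23 as the line of all genes falls, and for genotype in sedentary males that line rises and is shallower.

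The libraries themselves differed in this respect. Each library's slope of log2 level on GC content, relative to the mean of all libraries and per 10 percentage points, was above 0 in all 9 sedentary TG males (0.02 to 0.125) and below 0 in all 8 trained TG males (-0.243 to -0.037). The libraries of the other 6 groups lay on both sides of 0. Single hearts show it in part: the trained TG male library with the lowest slope, replicate 7, had the highest Ppp3cb (61.2 CPM), Ppp3ca, Mef2a and Mef2c and the lowest Nfatc1, Nfatc4 and Mef2d of its group. Its Nfatc2 (33.8 CPM) and Rcan1 (87.4 CPM), also high in GC content, did not follow and lay above the group medians of 33.5 and 79.6 CPM. Whether the slope is a property of the libraries or of the hearts cannot be told apart here, since it goes with the groups. An adjustment for GC content per library was added after seeing the data. It reduced the called genes for training in TG males from 3036 to 451, of which 331 were called before, and the called members from 7 to 1.

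With that adjustment Nfatc1 still fell, by 0.14 ± 0.04 (edgeR adjusted p 0.0469). Ppp3cb stood at 0.10 ± 0.03 (adjusted p 0.105), Mef2d at -0.13 ± 0.05 (0.127), Nfatc2 at -0.09 ± 0.05 (0.343) and Rcan1 at -0.21 ± 0.13 (0.373). Ppp3ca, Mef2a, Mef2c and Nfatc4 all lay within 0.03 of no change, Nfatc3 at -0.04, and Mef2c turned to -0.01. With transcript length adjusted for as well, 0 members passed and Nfatc1 stood at -0.125 with an adjusted p of 0.0505. Leaving out 1 library at a time without the adjustment gave 5 to 8 called members: 5 without trained TG male 7 (1702 genes called) and 8 without trained TG male 4 (4061 genes). Cell markers were tested without the GC adjustment, where 18% of all genes passed. In that fit 5 of 5 blood markers fell with training in TG males. Their summed level was 260 to 554 CPM (median 384) in trained and 290 to 4603 CPM (median 547) in sedentary hearts. Of the cardiomyocyte markers 2 of 6 rose. Of the other lists 2 of 6 fibroblast, 2 of 5 endothelial and 2 of 5 macrophage markers fell, with summed fibroblast levels of 643 to 1312 CPM in trained and 641 to 1068 CPM in sedentary hearts. The endothelial level was 834 to 1010 CPM in trained and 959 to 1077 CPM in sedentary hearts, and the macrophage level 129 to 207 and 132 to 203 CPM. Their part in the members' changes was not tested.

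**Figure D4:**
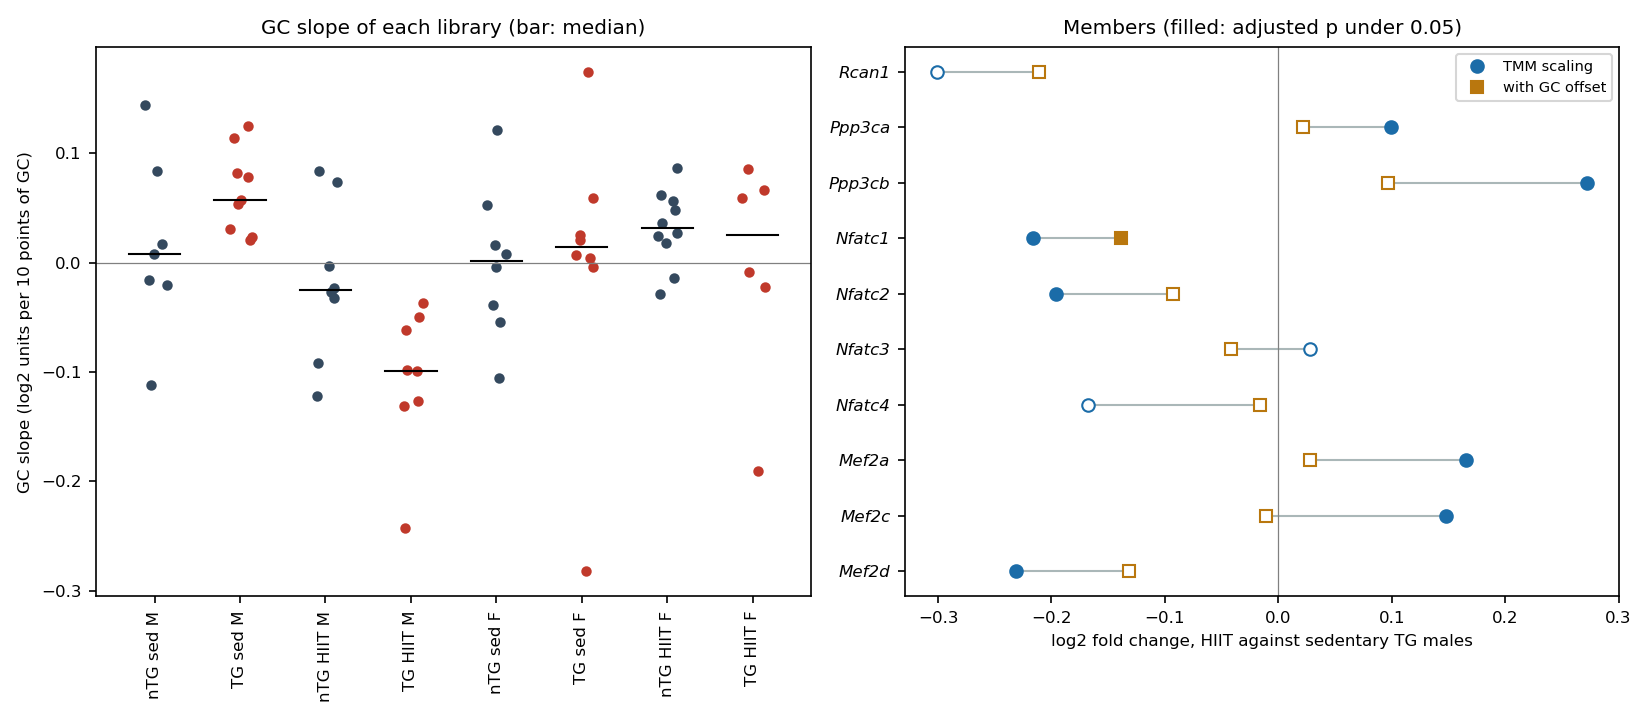
Left: slope of log2 level on GC content for each library by group, with group medians. Right: log2 fold change of each member for training in TG males with TMM scaling (circles) and with the GC adjustment (squares), filled where adjusted p was under 0.05: all 9 sedentary TG males lie above 0 and all 8 trained TG males below 0, and the called members go from 7 to 1.

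The GC adjustment kept the 3 genotype calls in males and turned the sign of some uncalled members. In sedentary males Ppp3cb stood at -0.15 ± 0.04 (adjusted p 0.00136) and Nfatc2 at 0.16 ± 0.06 (0.0292), and in trained males Mef2d at -0.20 ± 0.05 (0.00673), each called as before. In trained males Ppp3cb turned from 0.03 to -0.07 ± 0.04 (adjusted p 0.228) and Mef2c from 0.06 to -0.03 ± 0.05 (0.731), while Nfatc1 went from -0.06 to -0.02 and Mef2a from 0.09 to 0.02. Values nearer to 0 that also turned were those of Nfatc3, Mef2a and Mef2c in sedentary males, Ppp3cb and Mef2c in sedentary females and Mef2c in trained females. In trained females Ppp3cb passed, at -0.15 ± 0.04 with an adjusted p of 0.00372. Under this adjustment 22.4%, 12.5% and 16.6% of all genes passed in sedentary males, trained males and trained females. Over all 4 strata 4 members passed, beside 40.9% of all genes, so their share is close to that of all genes. They were Ppp3cb at -0.09 ± 0.02 (1.85e-05), Nfatc2 at 0.12 ± 0.03 (0.000453), Mef2d at -0.10 ± 0.03 (0.00204) and Rcan1 at 0.17 ± 0.07 (0.0339). With length added, Nfatc2 in sedentary males missed the threshold at 0.13 with an adjusted p of 0.0639.

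In the other training comparisons edgeR called 0 members, and 0 members had an unadjusted p under 0.05. All genes called amounted to 0% in nTG males, 0.148% in nTG females and 0% in TG females, and DESeq2 and limma voom also called 0 members in each. With the GC adjustment 0, 3 and 0 members had an unadjusted p under 0.05 in these groups. In nTG males the members ran from -0.13 ± 0.09 for Nfatc4 to 0.08 ± 0.05 for Mef2c. In nTG females 9 of 10 were above 0, the highest of them Mef2a at 0.08 ± 0.05. In TG females Rcan1 was at -0.14 ± 0.15 and Ppp3cb at -0.05 ± 0.06. The 95% interval for Ppp3cb in TG females was -0.16 to 0.07 and in TG males 0.17 to 0.37.

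Whether these effects differed between groups was tested directly by interaction terms, and edgeR called 0 members and 0% of all genes in each of 5. For genotype by training in males, 5 members had an unadjusted p under 0.05, led by Ppp3cb at 0.22 ± 0.08 (adjusted p 0.193) and Mef2d at -0.24 ± 0.09 (adjusted p 0.214). DESeq2 and limma voom called 0 members there. For training by sex in TG mice 4 members did, and Ppp3cb came closest, at -0.32 ± 0.08 for females against males with an adjusted p of 0.0759. DESeq2 called it (adjusted p 0.0304) beside 0.981% of all genes, and limma voom called Ppp3cb (0.0203) and Nfatc1 (0.0409) beside 5.48%. With the GC adjustment edgeR called 0 members in each of the 5 interactions. Then 2 members had an unadjusted p under 0.05 for training by sex, 1 for genotype by training in males (Mef2d, -0.16 ± 0.07) and 1 in females (Ppp3cb, -0.13 ± 0.05), and Ppp3cb in males stood at 0.08 ± 0.05. For genotype by sex there was 1 member with an unadjusted p under 0.05 in sedentary mice (Ppp3cb, 0.19 ± 0.08) and 1 in trained mice (Ppp3ca, -0.11 ± 0.04). With the GC adjustment these were 1 (Ppp3cb, 0.14 ± 0.05) and 0 (Ppp3ca, -0.08 ± 0.05). Genotype by training in females had 0 without the GC adjustment. DESeq2 and limma voom called 0 members in these 3 interactions. The training effect in TG males is thus not shown to differ from that in nTG males or TG females by edgeR.

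Between the sexes, sedentary nTG hearts had 0 called members beside 2.22% of all genes. The 1 member with an unadjusted p under 0.05 was Ppp3ca, at 57.2 to 65.5 CPM (median 60.8) in females and 61.8 to 68.7 CPM (median 64.0) in males, a log2 difference of -0.08 ± 0.03 (edgeR adjusted p 0.18). With the GC adjustment there were 2 such members, Ppp3ca at -0.10 ± 0.03 (adjusted p 0.0871) and Ppp3cb at -0.11 ± 0.04 (0.104), and 0 passed beside 3.21% of all genes. DESeq2 and limma voom called 0 members here as well. Leaving out 1 library at a time also gave 0 members, while the called genes went from 375 to between 204 and 513. Fitting only the groups compared gave 0 members beside 145 genes (0.858%).

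Genes around the pathway were counted from 5 lists of 66 genes, of which 63 were measured. They hold calcineurin subunits and modulators, calcium entry channels, NFAT export kinases and partners, MEF2 repressors and cofactors, and heart genes reported to respond to NFAT or MEF2. For genotype, 19 of 63 passed in males without training (7 higher, 12 lower) and 13 with it (1 and 12). In females it was 5 without training (2 and 3) and 17 with it (2 and 15). In that order these are 30.2%, 20.6%, 7.94% and 26.98% of the measured genes, against 20.6%, 14%, 4.37% and 14.8% of all genes. By list, in sedentary males 3 of 16 calcineurin genes, 1 of 8 calcium entry genes, 3 of 13 NFAT kinases and partners, 5 of 16 MEF2 regulators and 7 of 10 responsive genes passed. The lists were drawn up with earlier results of these data known, so their counts describe and do not test.

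Camk2b, a calcium-calmodulin kinase that signals to class II deacetylases, was higher in TG hearts in all 4 genotype comparisons. In sedentary males it stood at 39.6 ± 3.91 CPM (SD, n = 9) against 29.7 ± 3.53 (n = 7), a log2 fold change of 0.41 ± 0.08 (edgeR adjusted p 0.000157). It was 0.30 ± 0.08 in trained males, and in females 0.50 ± 0.08 without and 0.61 ± 0.08 with training. Hrc, a calcium-binding protein of the sarcoplasmic reticulum, was lower in all 4, at 579 ± 60.3 CPM against 828.5 ± 64.8 CPM in sedentary males (-0.52 ± 0.06, adjusted p 1.81e-08) and at -0.30, -0.32 and -0.39 in the others. The fetal genes Myh7 and Acta1, classic marks of hypertrophy, were higher in sedentary TG males by 1.72 ± 0.38 and 1.63 ± 0.36 on the log2 scale. Myh7 did not pass in the other strata, at 0.81 ± 0.36 in trained males (adjusted p 0.13), 0.96 ± 0.36 in sedentary females (0.131) and 0.77 ± 0.37 in trained females (0.149). Acta1 also passed in sedentary females at 1.11 ± 0.35 (adjusted p 0.0477), while it stood at 0.10 ± 0.34 in trained males (adjusted p 0.893) and at 0.87 ± 0.35 in trained females (0.0775).

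The other named genes were lower in TG hearts, except Vgll4. The kinases Mapk14 and Mapk9, which act on NFAT or MEF2 proteins, were lower in sedentary males at -0.21 ± 0.05 and -0.15 ± 0.03. Myocd, a cofactor of serum response factor that also binds MEF2, was lower in trained males (-0.32 ± 0.07) and sedentary females (-0.28 ± 0.07). Ckm, the muscle creatine kinase, was lower in trained males (-0.28 ± 0.06). Chp1, a calcineurin-like calcium-binding protein, was lower in sedentary females (-0.12 ± 0.03), a call lost with the GC adjustment (-0.10 ± 0.04, adjusted p 0.0764). Rcan2, a relative of Rcan1, and Smyd1, a muscle methyltransferase, were lower in trained females (-0.18 ± 0.04 and -0.24 ± 0.05), and Vgll4, a TEAD cofactor, was higher there (0.19 ± 0.06).

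For training in TG males 13 of 63 passed, 7 higher and 6 lower, which is 20.6% against 18% of all genes. The 3 of the 7 higher genes with the smallest p were Ppp3r1, the kinase Prkd1 (0.35 ± 0.08) and Mapk9 (0.14 ± 0.03). The 3 of the 6 lower genes with the smallest p were Hdac7, a class II deacetylase (-0.27 ± 0.06), Gsk3a, a kinase that sends NFAT out of the nucleus (-0.19 ± 0.05), and Cabin1, a calcineurin inhibitor (-0.16 ± 0.04). With the GC adjustment 2 of the 63 passed, Prkd1 (0.33 ± 0.08, adjusted p 0.0168) and Hrc (0.24 ± 0.07, 0.0314), beside 2.67% of all genes. The other 5 genes named here lost their call, with Ppp3r1 at 0.11 ± 0.04 (0.0635) and Hdac7 at -0.10 ± 0.04 (0.121). In nTG males, nTG females and TG females 0, 1 and 0 of 63 passed, beside 0%, 0.148% and 0% of all genes.

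Among hearts of the same group, members moved with different partners. Likeness was measured as Pearson r of log2 CPM over 64 libraries with group means removed, among 12156 genes, and is given as a description with no test. The points share library depth, base composition and tissue makeup. Rcan1 was most like Ckap4 (r = 0.85), Ankrd23 (0.813) and Uck2 (0.799). Ppp3cb was most like Selenot (0.865), Pnpla8 (0.849) and Ppp1cb (0.841), and Mef2d most like Tmem259 (0.877), Khsrp (0.874) and Ccdc97 (0.869). Nfatc1 was nearest to Ski (0.812), Trim47 (0.787) and Sorbs3 (0.721), and Nfatc2 to Arid1a (0.711), Zc3h4 (0.707) and Wasf2 (0.689). Nfatc3 was nearest to Uhmk1 (0.689), Lpgat1 (0.688) and Aff4 (0.679), and Nfatc4 to Cbx6 (0.686), Zbtb4 (0.657) and Kirrel (0.639). Without the 2 libraries farthest from the member's median, the r of Nfatc2 with its partners fell to 0.599, 0.582 and 0.597. For Nfatc4 it then stood at 0.622, 0.572 and 0.534. Mef2a was nearest to Isoc1 (0.761), Rab14 (0.754) and Ghr (0.747), Mef2c to Prrx1 (0.668), and for Ppp3ca the nearest gene stayed under 0.6. Between members the highest r were 0.596 for Ppp3cb with Mef2a, 0.579 for Nfatc1 with Mef2d and 0.557 for Nfatc1 with Nfatc4. The lowest were -0.442 for Ppp3cb with Nfatc1 and -0.438 for Rcan1 with Mef2a. The pairs with positive r here lie within a few points of GC content of each other, and those with negative r lie further apart.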

How the data were processed

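Heart RNA was depleted of ribosomal RNA and sequenced, per the labels' protocols. The authors deposited whole-number counts for 16913 genes and expected counts for 3787 lncRNA transcripts. In the latter 45 transcripts hold values that are not whole. The submitters' processing notes name cutadapt 2.3, STAR 2.7.8a and RSEM 1.3.3 and the GRCm38 build, with no role for each. The lncRNA table served only to match columns: log2 CPM centred per transcript, with a pseudocount of 0.5 and at least 20 counts on average.

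Gene counts were fitted as deposited with edgeR 4.0.16 (quasi-likelihood F test, TMM scaling, 8 group means, R 4.3.3). Its low-count filter kept all 16913 genes, and p-values were Benjamini-Hochberg adjusted over them with a threshold of 0.05. Intervals are 95%. DESeq2 1.42.0 and limma 3.58.1 (voom) were alternatives. Transcript GC content came from GENCODE M21, and adjustments for it were offsets from splines with 4 degrees of freedom. The fits were also run on simulated data, the outcome of which is not given here and is not used as support. Gene totals were 34.6 M to 67.1 M. Between hearts of 1 group the chi-square per degree of freedom over genes was 9.39 to 97.5 (229 pairs), where counting error alone gives about 1, so the spread between hearts limits the precision. Replicates are labelled as biological.

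The members and lists were chosen with earlier results of these data known. Named pathway genes were the 3 with the smallest p in each direction per comparison, and like genes the 3 with the highest r where r was at least 0.6.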

Additional observations from a re-analysis of the deposited data

Results flagged for a closer look

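Values that stood far from the rest of their group were looked for in 88 sets, the 10 members and the GC slope in 8 groups each. There were 8 such sets, and chance gives about 1 in 20, or 4.4. Rcan1 in trained TG male 4 was 169 CPM, while the other 7 lay between 67.4 and 112 CPM. Ppp3ca in sedentary nTG male 1 was 68.7 CPM, above 61.8 to 64.8 CPM in the others. Nfatc3 in trained TG female 5 was 33.25 CPM, below 36.6 to 38.4 CPM. Nfatc4 in sedentary nTG male 5 was 12.8 CPM, above 7.79 to 9.12 CPM. Mef2d in sedentary TG female 4 was 364 CPM, above 203 to 273 CPM. This heart had the highest GC slope of its group (0.174) and also its highest Nfatc1 (45.2 CPM) and Nfatc2 (45.2 CPM). Its Rcan1 (92.2 CPM) was not the highest of the group. Nfatc4 in sedentary TG female 7 was 6.68 CPM, below 9.23 to 10.8 CPM. The GC slope of that same heart, -0.282, lay below -0.0045 to 0.174 in the other 7 hearts, and it also had the lowest Mef2d (203 CPM), Nfatc1 (33.4 CPM), Nfatc2 (28.4 CPM) and Rcan1 and the highest Ppp3cb (60.98 CPM), Mef2a (290 CPM) and Nfatc3 of its group. The GC slope of trained TG male 7, -0.242, lay below -0.131 to -0.0374 in the others of that group.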

How the results depend on the processing

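Taking gene columns by name gave 0 called members for genotype in sedentary males, in trained males and over 4 strata and for training in TG males. By name Mef2d turned to 0.097 in trained males and 0.034 over 4 strata, and for training in TG males Ppp3ca turned to -0.0022, Ppp3cb to -0.047, Nfatc1 to 0.039 and Nfatc2 to 0.025. That table puts libraries against their labels. Library totals gave 3 called members for genotype in trained males and 6 over 4 strata, beside 16.6% and 42.8% of all genes. A mean of at least 100 counts gave 4 in sedentary males and 2 in trained males, while the share of all genes called went from 20.6% to 26.5% and from 14% to 20.5%. For trained females limma voom gave 1, fitting only the groups compared 1, the GC offset 1 and the GC and length offset 2, beside 21.2%, 14.6%, 16.6% and 16.8% of all genes. Over 4 strata limma voom gave 5 and the GC offset and the GC and length offset 4 each, beside 42.6%, 40.9% and 40.5% of all genes, so these counts are near the background. Median of ratios, library number as a covariate and a mean of at least 100 counts gave 3 each there, beside 39%, 39.2% and 47.6%. The GC and length offset gave 1 in sedentary males, beside 22.7%. For training in TG males the GC offset gave 1 and the GC and length offset 0, beside 2.67% and 2.85%, with Mef2c at -0.011 and -0.0071. In that comparison library totals gave 5 and fitting only the groups compared 6, beside 17.5% and 16.6%. A mean of at least 100 counts gave 7 there and limma voom 8, beside 28.2% and 26.8%. For training by sex in TG mice DESeq2 gave 1 and limma voom 2, beside 0.981% and 5.48%. The cause of these shifts was not tested.

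Leaving out 1 library at a time gave 1 to 3 called members for genotype in sedentary males, beside 2777 to 3785 of all genes, and 2 to 5 over 4 strata (5 without sedentary TG female 7), beside 6297 to 6763. For training in TG males it gave 5 to 8, beside 1702 to 4061. With a replicate block the counts were 2, 1, 2 and 7 for genotype in sedentary males, in trained males and over 4 strata and for training in TG males, the same counts as without it, beside 21.8%, 14.1%, 38.4% and 17.4% of all genes. Replicate numbers do not pair these hearts: the mean r of deviations was 0.0147 between hearts of the same number and -0.0019 between others, and 10 of 64 correlated best with their own number.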
